A study of Drosophila melanogaster with 35 samples.

Results

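Untranslated regions (UTRs) of messenger RNAs from chromosomes 2, 3 and 4 held 213 of the 3235 peaks deposited for CLAMP by iCLIP, crosslinking and immunoprecipitation at single-nucleotide resolution. CLAMP, a protein with zinc fingers, recognises GA repeats in DNA and helps to recruit the dosage compensation complex to the male X chromosome of Drosophila. In iCLIP, ultraviolet light links a protein to the RNA it touches, the protein is precipitated, and sites where sequenced RNA accumulates are called as peaks. A peak was a member when its midpoint lay, on its own strand, in a 5' UTR of a protein-coding gene, or in a 3' UTR and in no coding sequence (CDS), on arm 2L, 2R, 3L, 3R or 4. Peaks in exons of non-coding RNAs under 500 nt were left out. Of the members, 177 lay in 3' UTRs and 36 in 5' UTRs, in 175 genes.

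The libraries came from S2 cells, a male embryonic line, and Kc cells, a female embryonic line, all crosslinked at 254 nm and separated into chromatin, nucleoplasm and cytoplasm. The labels name no genotype change and no drug for any group, and each line is a single cell line. CLAMP was precipitated in 4 libraries of each line and fraction, and 11 libraries had no antibody. Peaks came as 1 list for the chromatin and 1 for the nucleoplasm of each line and 1 for the cytoplasm of Kc, while S2 cytoplasm was not analysed here. The lists give positions but no read counts, so read depth is unknown, the RNA level of cell type markers cannot be read from them, and the amount of each mRNA in the 2 lines is unknown. No list of control peaks was used, so contact with CLAMP is not shown for any single peak.

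A 5' UTR is the stretch of mRNA that ribosomes scan before they reach the start codon. A 3' UTR follows the stop codon and carries binding sites for proteins and microRNAs that set where an mRNA goes, how long it lasts and how much it is translated. Many Drosophila genes make several 3' UTRs by cleaving and polyadenylating the transcript at different places, and proximal sites give short and distal sites give long 3' UTRs. Proteins that bind 3' UTRs can join the transcript in the nucleus, and some bind their own mRNA.

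UTR peaks were found in every list but that of Kc cytoplasm, and their number differed widely. S2 chromatin held 161 of them, 27 in 5' UTRs and 134 in 3' UTRs. Kc chromatin held 27, of which 2 were in 5' UTRs and 25 in 3' UTRs. S2 nucleoplasm held 5 (2 and 3) and Kc nucleoplasm 20 (5 and 15). Kc cytoplasm held 0 UTR peaks among 8 peaks in all, and a count of 0 there still allows a share of up to 37.5%, taken as 3 peaks of the total. Only 1 of these 8 peaks lay on an autosomal arm, so this limit is not comparable with the shares of arm peaks below. With 1 list a condition, no number has a spread between replicates.

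**Figure D1:**
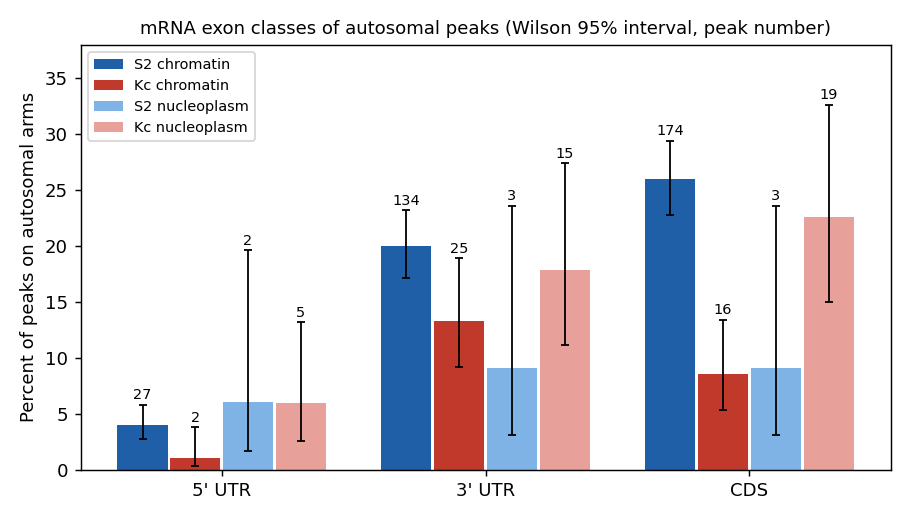
Bars give the percent of each list's peaks on the autosomal arms (y axis) that lay in a 5' UTR, a 3' UTR or a CDS (x axis), with Wilson 95% intervals and the number of peaks above each bar. The 3' UTR bars stand above the 5' UTR bars in all 4 lists, and the intervals of the nucleoplasm lists are wide.

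As a share of the peaks on the autosomal arms, UTR peaks were higher in S2 chromatin than in Kc chromatin, by a difference that missed the threshold after adjustment. They made up 24.0% of arm peaks in S2 chromatin (161 of 670, Wilson 95% interval 20.9 to 27.4%) and 14.4% in Kc chromatin (27 of 188, 10.1 to 20.1%). The odds ratio was 1.86 (1.20 to 2.89), with a two-sided Fisher's exact p of 0.00504 and an adjusted exact p of 0.0605 over 12 tests. Genes with a same-strand peak of any class, small RNA genes among them, were also counted. Of these, 139 of 485 in S2 chromatin and 22 of 141 in Kc chromatin had a UTR peak. That difference passed (odds ratio 2.14, adjusted exact p = 0.0177). Peaks in no such gene, as antisense and intergenic ones, dropped out of this count. By peaks, the difference passed without the 3 genes that had most UTR peaks, pAbp, aqz and sqd (odds ratio 2.43, adjusted exact p = 0.00259). These genes were chosen after the data were seen, by the UTR peaks that the test counts. Leaving them out took UTR peaks from 27 to 19 in Kc chromatin and from 161 to 149 in S2 chromatin. The odds ratio rose by that choice, so the value is no support for the difference. These tests compare lists, not repeated experiments, and treat peaks as independent. With peaks of at least 30 nt the odds ratio was 1.54 (adjusted exact p = 0.292), and peak widths differed between the lists. Other classes differed too. CDS peaks were 26.0% of arm peaks in S2 and 8.51% in Kc chromatin, and small RNA peaks 23.0% and 41.5%. Among UTR and CDS peaks alone, the UTR share went the other way, 48.1% in S2 and 62.8% in Kc chromatin, and did not pass. The higher S2 share is thus not particular to UTRs.

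The other pairs of lists gave no difference that passed. In nucleoplasm UTR peaks were 15.2% of S2 arm peaks (5 of 33) and 23.8% of Kc arm peaks (20 of 84), where S2 over Kc gave 0.607 as the odds ratio (0.215 to 1.72; adjusted exact p = 0.589). Between S2 chromatin and S2 nucleoplasm the odds ratio was 1.64 (0.648 to 4.16; adjusted exact p = 0.510). Between Kc chromatin and Kc nucleoplasm it was 0.536 (0.282 to 1.02; adjusted exact p = 0.326). All 3 intervals include 1 and are wide, so they do not show that the shares are alike.

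Within mRNA exons, UTRs and coding sequence took similar numbers of peaks in S2 chromatin and Kc nucleoplasm. UTR peaks were 48.1% of the UTR and CDS peaks in S2 chromatin (161 of 335) and 62.8% in Kc chromatin (27 of 43), and the odds ratio was 0.555 (0.291 to 1.06; adjusted exact p = 0.326). They were 62.5% in S2 nucleoplasm (5 of 8) and 51.3% in Kc nucleoplasm (20 of 39; odds ratio 1.49, 0.341 to 6.54, adjusted exact p = 0.706). Within S2 cells the odds ratio of chromatin over nucleoplasm was 0.589 (0.152 to 2.29; adjusted exact p = 0.589), and within Kc cells it was 1.59 (0.664 to 3.78; adjusted exact p = 0.559).

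Set against the length of the annotation, 3' UTRs held more peaks per base than CDS or 5' UTRs in both chromatin lists. Autosomal genes have 5.35 Mb of 3' UTR outside CDS, 18.6 Mb of CDS and 3.65 Mb of 5' UTR. S2 chromatin had 25.0 peaks per Mb of 3' UTR, 9.35 per Mb of CDS and 7.39 per Mb of 5' UTR. Kc chromatin had 4.67, 0.860 and 0.547 peaks per Mb of 3' UTR, CDS and 5' UTR. In Kc nucleoplasm the values were 2.80, 1.02 and 1.37 in the same order. In S2 nucleoplasm, with 8 such peaks in all, they were 0.560, 0.161 and 0.547. The densities count annotated bases, and which transcripts the cells made is unknown.

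The balance of 5' and 3' UTRs did not differ by the test between any pair of lists. Of the UTR peaks, 16.8% lay in 5' UTRs in S2 chromatin (11.8 to 23.3%), 7.41% in Kc chromatin (2.06 to 23.4%), 40% in S2 nucleoplasm (11.8 to 76.9%) and 25% in Kc nucleoplasm (11.2 to 46.9%). The odds ratio of S2 over Kc was 2.09 in chromatin (0.534 to 8.14; adjusted exact p = 0.510) and 2.01 in nucleoplasm (0.303 to 13.4; adjusted exact p = 0.651). Chromatin over nucleoplasm gave 0.286 in S2 (0.0537 to 1.53; adjusted exact p = 0.504) and 0.276 in Kc (0.0545 to 1.40; adjusted exact p = 0.356). The intervals are wide because every list but S2 chromatin has at most 5 peaks in 5' UTRs.

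The UTR peaks of S2 chromatin were narrower than those of Kc chromatin. Their median width was 30 nt in S2 chromatin (quartiles 24 and 38, range 19 to 77) and 40 nt in Kc chromatin (quartiles 35.5 and 41.5, range 22 to 53). Kc nucleoplasm had a median of 31.5 nt and S2 nucleoplasm, with 5 peaks, 25 nt. Of the UTR peaks of S2 chromatin, 77 of 161 were under 30 nt (47.8%), while 4 of 27 were in Kc chromatin (14.8%). The nucleoplasm lists had 4 of 5 (S2) and 8 of 20 (Kc, 40%). CDS peaks of the same chromatin lists had medians of 33.5 nt in S2 and 41 nt in Kc. Within S2 chromatin 51.5% of 3' UTR peaks and 29.6% of 5' UTR peaks were under 30 nt. The narrowest members were 19 nt wide, in Not3 and Madm, and the widest was 77 nt, in Bsg, all in S2 chromatin.

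**Figure D2:**
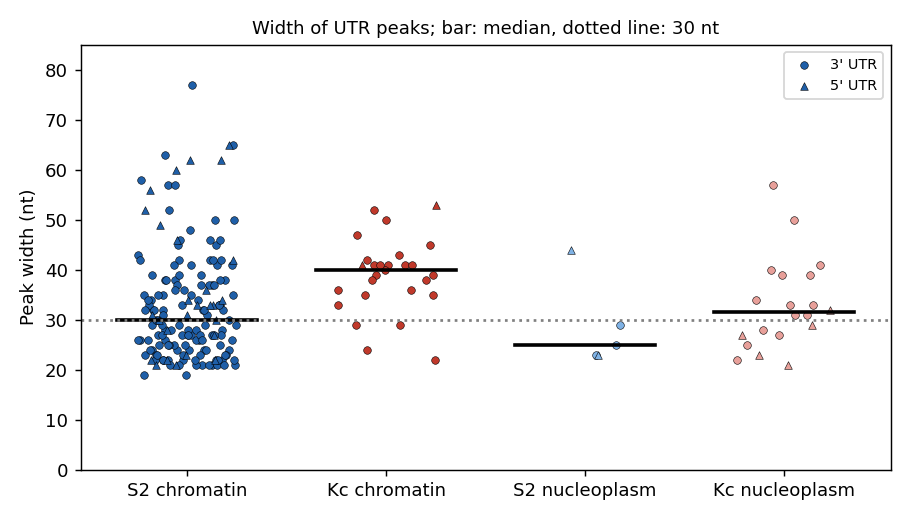
Each point is 1 UTR peak, with its width in nt on the y axis and its list on the x axis. Circles are 3' UTR peaks, triangles 5' UTR peaks, black bars medians and the dotted line 30 nt. Many S2 chromatin points lie under the dotted line, where 4 of the 27 Kc chromatin points lie.

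Most genes with a UTR peak had 1 peak only. Of 11444 autosomal coding genes with an annotated UTR, 139 had a UTR peak in S2 chromatin (1.21%) and 22 had one in Kc chromatin (0.192%). The nucleoplasm lists gave 5 genes in S2 (0.0437%) and 20 in Kc (0.175%), and Kc cytoplasm gave 0 (0%). Of the 139 genes in S2 chromatin, 125 had 1 UTR peak, 14 had 2 or more, and 5 had peaks in both UTRs. Those 5 were pAbp, Df31, larp, swm and Xbp1. A CDS peak in the same list was present in 14 of the 139 genes, among them the laminin genes LanB1 and LanB2 with 2 CDS peaks each. It was present in 0 of the 22 Kc chromatin and 0 of the 20 Kc nucleoplasm genes. S2 chromatin held 174 autosomal CDS peaks, Kc chromatin 16 and Kc nucleoplasm 19. With so few CDS peaks in Kc, the counts of 0 show no contrast with S2. A UTR or CDS peak was present in 287 genes in S2 chromatin, 38 in Kc chromatin and 39 in Kc nucleoplasm. These are small parts of the 11444 autosomal coding genes with a UTR. The share of all genes with a CDS peak alone was not computed, so the 14 of 139 is a description.

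The genes came with long 3' UTRs, as a typical base of annotated 3' UTR also does. Over the genes with 3' UTR peaks, the longest annotated 3' UTR had a median of 1007 nt in S2 chromatin and 1844 nt in Kc chromatin, against 211 nt over all autosomal genes with a 3' UTR. A long UTR offers more bases on which a peak can lie. Over peaks rather than genes the median was 1084 nt in S2 chromatin, 2065 nt in Kc chromatin and 1504 nt in Kc nucleoplasm. Over all annotated 3' UTR bases it was 1235 nt. By this measure S2 chromatin lay a little under and Kc chromatin over the value of a typical base, and in Kc 8 of the 25 peaks were in pAbp, aqz and sqd.

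The genes with the most UTR peaks over all lists were pAbp, sqd and aqz. The gene pAbp encodes the poly(A)-binding protein, which coats the tail that follows the 3' UTR and aids translation. It had 7 UTR peaks in S2 chromatin, 1 in the 5' UTR at 2R:18140801-18140822, 34 nt from the annotated transcript start, and 6 in the 3' UTR. The latter lay 226, 356, 570, 698, 1290 and 1705 nt after the stop codon, spread along a 3' UTR of 1904 nt. The first is in the 3' UTR of all 3 coding transcripts, the next 3 in that of 2, and the last 2 only in the longest. Kc chromatin had 1 peak, 555 nt after the stop codon, that overlapped the S2 peak at 570 nt.

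For sqd, which encodes an hnRNP protein that takes part in mRNA localisation and splicing, all 7 peaks of the 3 lists lay in the same long 3' UTR. This 3' UTR of 4471 nt belongs to 1 of the 5 coding transcripts. Kc chromatin had 5 peaks, 1585, 2651, 2779, 2973 and 4364 nt after the stop codon. The S2 chromatin peak was at 2053 nt and the Kc nucleoplasm peak at 546 nt. None of the 7 overlapped another, and the last Kc chromatin peak lay 107 nt before the annotated end.

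The gene aqz had peaks in 3 lists. In S2 chromatin 4 peaks lay 1611, 1871, 2393 and 2990 nt after the stop codon, and in Kc chromatin 2 lay at 1507 and 2830 nt. All 6 were at least 1507 nt after the stop codon and at least 188 nt before the nearest annotated end. The Kc nucleoplasm peak was in the 5' UTR, 276 nt before the start codon. The nearest S2 and Kc chromatin peaks of aqz, at 3R:8816241-8816264 and 3R:8816331-8816382, did not overlap.

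Between the 2 chromatin lists, 7 genes had a UTR peak in both. They were pAbp, sqd, aqz, larp, ps, Vha16-1 and Vha26, which is 5.04% of the S2 genes and 31.8% of the Kc genes, where 1.21% of all autosomal genes had a UTR peak in S2 chromatin. The longest annotated 3' UTRs of these 7 genes ran from 1904 nt (pAbp) to 7651 nt (ps). The median over all autosomal genes with a 3' UTR was 211 nt, so the 1.21% is a share of genes unlike them. Whether UTR length accounts for the overlap was not tested. How strongly these genes are expressed in either line was not measured here. The peaks themselves mostly lay apart. Of the 27 Kc chromatin UTR peaks, 2 overlapped an S2 chromatin UTR peak by at least 1 nt. These were the pAbp pair, at 2R:18145844-18145870 in S2 and 2R:18145820-18145864 in Kc (21 nt shared), and the larp pair, at 3R:28319603-28319628 in S2 and 3R:28319578-28319610 in Kc (8 nt shared).

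**Figure D3:**
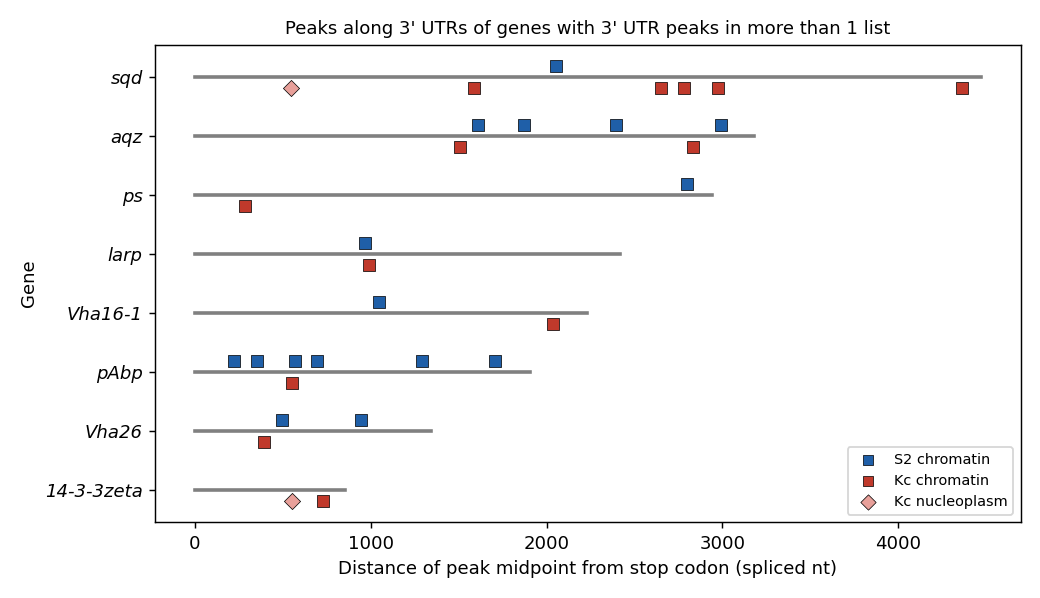
Each grey line is the 3' UTR of 1 gene with 3' UTR peaks in more than 1 list, drawn from its stop codon (x axis, spliced nt) to the end of the longest UTR among the transcripts whose ends are nearest to its peaks. Squares are chromatin and diamonds nucleoplasm peaks, with S2 above and Kc below the line. The larp squares stand together, at 967 and 988 nt, while those of ps stand at 2800 and 285 nt.

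The other genes shared by the chromatin lists encode RNA regulators or proton pump subunits. For larp, a La-related protein that binds mRNAs and poly(A)-binding protein, the shared 3' UTR site lay 967 nt (S2) and 988 nt (Kc) after the stop codon in all 7 coding transcripts. S2 chromatin had another larp peak, in the 5' UTR of 1 transcript, 62 nt from its start. For ps, which encodes a splicing regulator related to mammalian NOVA proteins, the S2 peak was 2800 nt and the Kc peak 285 nt after the stop codon. For Vha16-1, a membrane subunit of the vacuolar proton pump, the S2 peak was at 1049 nt and the Kc peak at 2037 nt of a 3' UTR of 2228 nt. For Vha26, another subunit of the pump, the S2 peaks were at 498 and 943 nt and the Kc peak at 394 nt.

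A further 6 genes had 2 peaks each along the 3' UTR in S2 chromatin. Bsg, a membrane glycoprotein of the immunoglobulin family, had peaks 421 and 1358 nt after the stop codon. InR, the insulin receptor, had peaks at 1035 and 1603 nt, both at least 1540 nt before the transcript end, and Kc chromatin had a CDS peak in this gene. ATP6AP2, an accessory protein of the proton pump, had peaks at 161 and 280 nt, and Eb1, which binds growing microtubule ends, at 93 and 757 nt. In rin, the fly G3BP protein of stress granules, peaks stood at 378 and 1894 nt, and in zfh1, a zinc-finger homeodomain transcription factor, at 1403 and 2890 nt.

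The remaining genes with several S2 chromatin peaks had a short 3' UTR or peaks in both UTRs. RpL41, a ribosomal protein, had 1 peak 1 nt and another 130 nt after the stop codon of a 3' UTR of 199 nt, with an annotated gene on the other strand. Df31, a chromatin protein that binds histones, had peaks 221 and 497 nt after the stop codon and a 5' UTR peak 31 nt from the transcript start. Xbp1, the transcription factor of the unfolded protein response, had a 5' UTR peak 62 nt before the start codon and a 3' UTR peak 155 nt before the end. For swm, an RNA-binding zinc-finger protein, a 5' UTR peak lay 163 nt before the start codon and a 3' UTR peak 149 nt after the stop codon.

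The 20 Kc chromatin genes with 1 peak included 2 that act together in microRNA silencing, AGO1, which holds the microRNA, and gw, its GW182 partner. The gene gw was named after its value was seen, and its peak is 24 nt wide, so the pair is a description. The AGO1 peak lay 1314 nt after the stop codon at 2R:13946639-13946677, and the gw peak 238 nt after it at 4:650008-650031. Others were the early endosome protein Rab5 (1036 nt after the stop codon), the Ras regulator Nf1 (671 nt) and the respiratory complex I subunit ND-MLRQ (62 nt). The 14-3-3 adaptor proteins, which bind phosphorylated partners, had a Kc chromatin peak each, 14-3-3epsilon at 1796 nt and 14-3-3zeta at 730 nt. The latter also had a Kc nucleoplasm peak, at 554 nt. The 5' UTR peaks of Kc chromatin were in Dlg5, 244 nt before the start codon, and in Cipc, 318 nt before it.

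The nucleoplasm lists shared 0 UTR genes with each other, where 0.175% of all genes had a UTR peak in Kc nucleoplasm and S2 nucleoplasm had 5, too few for an overlap to be read. In S2 nucleoplasm, the 3' UTR peaks were in RnrS, a subunit of ribonucleotide reductase (12 nt after the stop codon), Rap1, a small GTPase (462 nt), and CG31523 (1238 nt). The 5' UTR peaks were in the kinase gene Hipk, 378 nt before the start codon, and in CG31224, 11 nt before it. In S2 chromatin Hipk also had a 3' UTR peak, 4939 nt before its annotated end, the farthest of all 177 3' UTR peaks. A further gene, CG1317, had a 5' UTR peak in S2 chromatin and a CDS peak in S2 nucleoplasm.

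Kc nucleoplasm had UTR peaks in 20 genes with 1 peak each. In 5' UTRs they lay in chic, which encodes the actin-binding protein profilin (32 nt before the start codon), foxo, a transcription factor of insulin signalling (737 nt), pho, a DNA-binding Polycomb group protein (321 nt), aqz (276 nt) and CG8668 (728 nt). In 3' UTRs they lay in l(2)gl, a cell polarity tumour suppressor (305 nt after the stop codon), Vha55, a proton pump subunit (245 nt), unk, a zinc-finger protein (530 nt), Prosap, a scaffold protein of the Shank family (135 nt), and gzl, a ubiquitin ligase of endosomes (117 nt). The peak in sky, which encodes a regulator of Rab proteins, was 1017 nt after the stop codon and also lay in the gene CG43739. Other genes were heix (898 nt), Bacc (226 nt), CG3662 (477 nt), CG4502 (27 nt), CG17715 (757 nt), CG1344 (439 nt) and CG32276 (3 nt).

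Of the 20 Kc nucleoplasm genes, 3 had a UTR peak in Kc chromatin, as did 0.192% of all autosomal genes, and 2 had one in S2 chromatin, as did 1.21% of all. The genes shared with Kc chromatin were 14-3-3zeta, aqz and sqd, 15% of the Kc nucleoplasm and 13.6% of the Kc chromatin genes. Those shared with S2 chromatin were aqz and sqd. No UTR peak of a nucleoplasm list overlapped a UTR peak of another list by 1 nt, or lay within 50 nt of one.

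Whether 3' UTR peaks lay closer to the transcript end than other positions did depended on how the positions were weighted. The distance from a peak's midpoint to the nearest annotated 3' end, in spliced nt, had a median of 246.5 nt in S2 chromatin (quartiles 119 and 577, range 11 to 4939) and 348 nt in Kc chromatin (quartiles 175 and 1432, range 16 to 2886). The Kc chromatin median was 220 nt without pAbp, aqz and sqd, and 978 nt when taken to the farthest annotated end. It was 455 nt in Kc nucleoplasm (range 84 to 3925), and 32, 272 and 1080 nt for the 3 peaks of S2 nucleoplasm. Of the S2 chromatin peaks 29 of 134 lay within 100 nt of an end (21.6%). So did 23.0% of the positions of the same UTRs when the UTR of each peak was weighted equally, but 12.04% when every base was, which gives long UTRs more weight. In Kc chromatin 3 of 25 peaks did (12%), against 19.6% of positions by UTR and 10.6% by base. In Kc nucleoplasm 1 of 15 did (6.67%), against 13.8% and 11.2%.

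**Figure D4:**
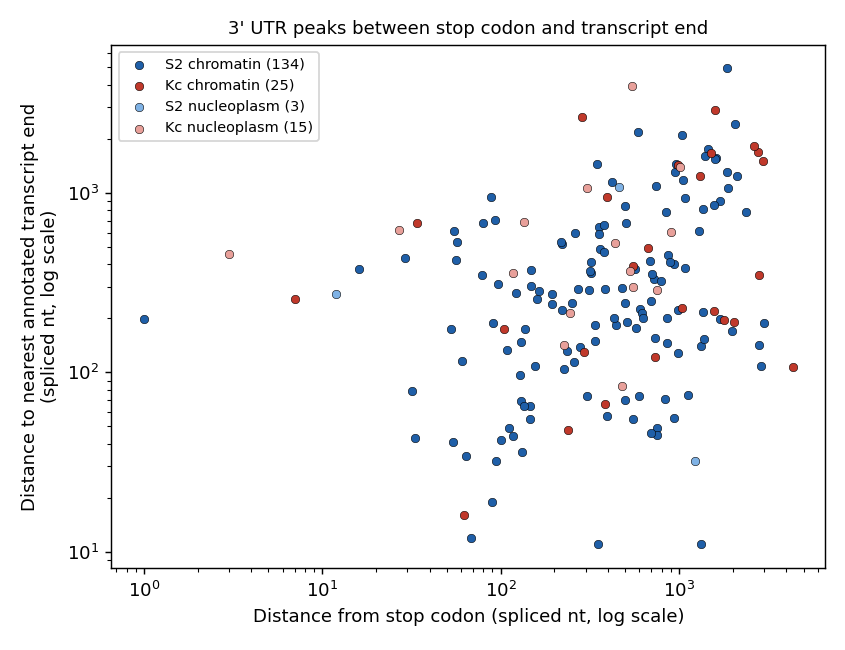
Each point is 1 peak in a 3' UTR, with its distance from the stop codon on the x axis and to the nearest annotated transcript end on the y axis, both in spliced nt on log scales, coloured by list. S2 chromatin points lie from 11 to 4939 nt before the end, Kc chromatin points from 16 to 2886 nt and Kc nucleoplasm points from 84 to 3925 nt. S2 nucleoplasm has 3 points.

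Each peak was also ranked within the 3' UTRs of its own gene. The percentile of a peak's distance to the end among all positions of the same UTR would have a median of 50 for evenly placed peaks. Its median was 47.4 in S2 chromatin (95% interval of the median 39.3 to 55.5), 55.8 in Kc chromatin (29.9 to 62.9) and 67.0 in Kc nucleoplasm (32.4 to 89.1). In S2 chromatin 48 peaks fell in the lowest range of percentiles when the scale was cut in 3 equal parts, 47 in the middle and 39 in the highest. In Kc chromatin the numbers were 8, 10 and 7, and in Kc nucleoplasm 4, 3 and 8, the highest range being far from the end. By another measure, the position along the 3' UTR of the transcript whose end was nearest, 25 S2 chromatin peaks lay in the first of 3 equal parts after the stop codon (18.7%), 52 in the middle and 57 in the last (42.5%). By this measure Kc chromatin had 4, 10 and 11 peaks, and Kc nucleoplasm 6, 7 and 2. It differs from the percentile in counting 1 transcript of the gene, chosen by its nearness to the peak. No test was made of these distances, since the peaks of a list share their libraries.

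**Figure D5:**
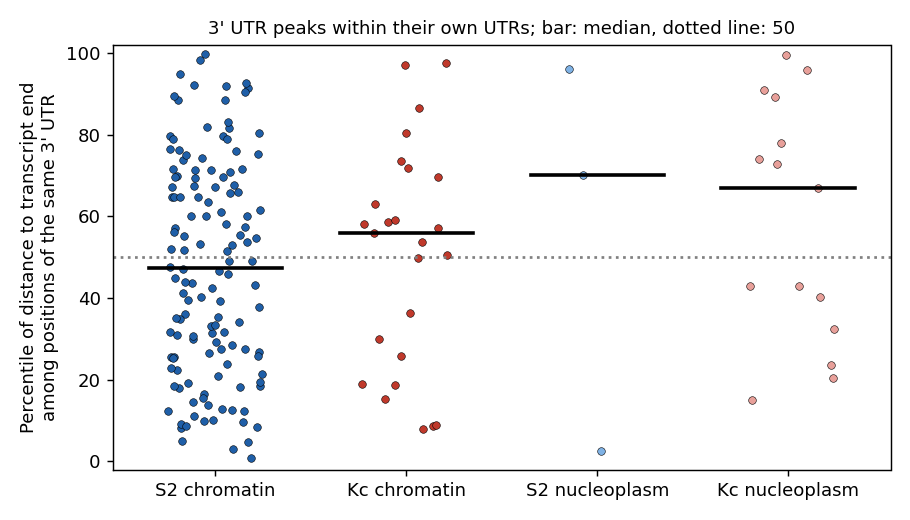
Each point is 1 peak in a 3' UTR, placed on the y axis by the percentile of its distance to the transcript end among all positions of the same 3' UTR (low is near the end) and on the x axis by list. Black bars are medians, and the dotted line at 50 marks even placement, near which the S2 chromatin median of 47.4 and the Kc chromatin median of 55.8 lie.

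The median distance from the stop codon was 408 nt in S2 chromatin, 988 nt in Kc chromatin and 439 nt in Kc nucleoplasm. Within 100 nt of it lay 22 of 134 peaks in S2 chromatin (16.4%, against 17.1% of positions of the same UTRs, each UTR weighted equally) and 3 of 25 in Kc chromatin (12%, against 12.2%). In Kc nucleoplasm 2 of 15 did (13.3%, against 8.76%).

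In 5' UTRs of S2 chromatin, peaks lay a median of 160 nt from the nearest annotated transcript start (quartiles 55.5 and 336, range 27 to 1128) and 163 nt before the start codon. Of these 27 peaks, 10 were within 100 nt of a start (37.0%). That compares with 35.8% of positions of the same UTRs by UTR and 21.6% by base. Within 100 nt of the start codon lay 8 (29.6%, against 32.2% of positions by UTR). Among those close to the start were RpL8 (27 nt), alphaTub84B (29 nt), which encodes an alpha-tubulin, Tctp (30 nt), CG1317 and Df31 (31 nt each) and pAbp (34 nt). The 5' UTR peaks of chif and lt lay also in the CDS of another transcript.

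Many peaks lay in a 3' UTR that only some transcripts of the gene carry. In S2 chromatin 86 of 134 3' UTR peaks (64.2%, Wilson 95% interval 55.8 to 71.8%) lay in the 3' UTR of every coding transcript of their gene, and in Kc chromatin 7 of 25 did (28%, 14.3 to 47.6%). In Kc nucleoplasm the number was 10 of 15 (66.7%, 41.7 to 84.8%) and in S2 nucleoplasm 3 of 3. Peaks of 1 gene share its transcripts. Without pAbp, aqz and sqd the share was 69.1% in S2 chromatin (85 of 123, 60.5 to 76.6%). In Kc chromatin it was then 41.2% (7 of 17, 21.6 to 64.0%). These intervals overlap, which does not show that the shares are alike. The genes left out were picked by their number of UTR peaks after the data were seen. A peak in a gene with 1 coding transcript counts as in every transcript by definition. Such peaks were 25 of the 134 in S2 chromatin and 1 of the 25 in Kc chromatin. The genes with UTR peaks had a median of 3 coding transcripts in S2 chromatin and 4 in Kc chromatin. The values of the 2 lists are therefore not alike in their base. This measure was added after results were seen and was not tested. Examples of peaks in the 3' UTR of only some transcripts were Hrb87F in S2 chromatin (1 of 4 transcripts), fru (2 of 15), Rab5 in Kc chromatin (2 of 9) and ps in Kc chromatin (2 of 18).

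The gene lists considered gave small counts, which are set beside the share of all autosomal genes with a UTR peak. In S2 chromatin, where that share was 1.21%, ribosomal protein genes had UTR peaks in 7 of 78 members (8.97%). These were RpL41, RpL18, RpS20, RpS23 and RpS27 in the 3' UTR and RpL8 and RpLP2 in the 5' UTR. The peak of RpL18 stood 34 nt before the end of a short 3' UTR of 98 nt. That of RpS23 stood 43 nt before the end of a 3' UTR of 76 nt, and 306 nt before that of another transcript, of 339 nt. Translation factors had 4 of 51 (7.84%), which were pAbp, eRF3, eIF4G2 and Unr. Unr, an RNA-binding protein that represses msl-2 in females, had its peak 1976 nt after the stop codon at 3L:8432474-8432512. Ribosomal protein genes had 0 of 78 in Kc chromatin, where 0.192% of all genes had a UTR peak, and translation factors 1, pAbp.

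RNA regulators were present in both chromatin lists. Genes of hnRNPs and splicing regulators had UTR peaks in 5 of 26 members in S2 chromatin (19.2%), in sqd, ps, Hrb27C, Hrb87F and Hrb98DE, and in 2 of 26 in Kc chromatin (7.69%), sqd and ps. All were in 3' UTRs, such as Hrb27C 1459 nt and Hrb98DE 852 nt after the stop codon. Genes of mRNA turnover and localisation had 4 of 26 in S2 chromatin (15.4%), which were larp, rin, Not3, a subunit of the deadenylase complex, and pum, a translational repressor. They had 2 of 26 in Kc chromatin, larp and AGO1. The lists were chosen with earlier results of these data known, so their counts are descriptions, and in nucleoplasm the list member with a UTR peak was sqd, in Kc.

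Matrix and hemocyte genes mark the fly blood cells that both lines are thought to be related to. They had UTR peaks in 4 of 26 members in S2 chromatin (15.4%) and in 0 in the other lists. In those lists at most 0.192% of all genes had a UTR peak, so the 0 says little. The 4 genes were the basement membrane genes vkg, LanB1 and LanB2 and the integrin ligand Tig. The hemocyte markers Hml, NimC1, srp, Pxn and Col4a1 had no UTR peak in any list. The peaks of vkg, LanB2 and Tig were in 3' UTRs and 22 to 29 nt wide, and that of LanB1 was in the 5' UTR and 30 nt wide. Autosomal markers of other cell types, among them neuronal (nSyb), muscle (Mhc) and germline (vas) genes, had 0 of 11 in every list, which at 1.21% of all genes or less says little. Genes of secretion and vesicle traffic had 6 of 86 in S2 chromatin (6.98%), Vha26, Vha16-1, VhaAC45, Sec61alpha, SsRbeta and Sar1, 3 in Kc chromatin, Vha26, Vha16-1 and Rab5, and 1 in Kc nucleoplasm, Vha55.

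Chromatin and dosage compensation genes had UTR peaks in 4 of 42 members in S2 chromatin (9.52%), Df31, His2Av, Pcl and Unr, and in 1 of 42 in Kc nucleoplasm, pho. The His2Av peak, in the mRNA of a variant histone, lay in the 5' UTR 42 nt before the start codon, and the peak of Pcl, a Polycomb group gene, 577 nt after the stop codon. Respiratory chain genes had 2 of 82 in S2 chromatin (2.44%), COX7C and blw, and 1 in Kc chromatin, ND-MLRQ. Cytoskeletal genes had 1 of 37 in S2 chromatin (alphaTub84B) and 1 in Kc nucleoplasm (chic), chaperones 1 of 36 in S2 chromatin (Hsp83), proteasome genes 1 of 43 (Prosalpha2) and glycolysis genes 0 of 11. These last counts are near the share over all genes or too small to describe.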

How the data were processed

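The files are 5 peak lists, 1 for a line and fraction. STAR 2.5.2b-2, cutadapt 3.5, UMI-tools, FastQC and the build dm6 are named per the submitters' processing notes, and per the labels' protocols libraries had barcodes of 4 nt and 31 PCR cycles. The choice of peak caller, its settings and the libraries behind each list were not given in the sources used here. For Kc nucleoplasm 3 of the 4 CLAMP libraries carry the name of the list in their labels, and for the other 4 lists analysed all 4 do. Libraries without antibody also name a list, 1 of 1 in Kc chromatin, 2 of 2 in Kc cytoplasm and 1 of 2 in each of the other groups with a list. The deposited score was 0 in every peak and was not used. Peaks are the authors' calls, and other deposited values are start and end coordinates, here 1-based on dm6.

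Peaks were placed on Ensembl release 115 (BDGP6, the same coordinates) by their midpoint, in the order non-coding RNA under 500 nt, rRNA, 5' UTR, CDS, 3' UTR, other exons, transposable element, intron, antisense and intergenic. Distances are in spliced nt, to the nearest annotated end of a transcript whose UTR holds the midpoint. Shares were set against each other by Fisher's exact test, two-sided, with Benjamini-Hochberg adjustment over 12 tests (3 measures in 4 pairs of lists) and a threshold of 0.05. Odds ratios have a correction of 0.5 and Woolf 95% intervals. Intervals of shares are Wilson 95% intervals, those of medians come from binomial order statistics, and all cover counting error only. The placement was tested on simulated peaks. Python 3.11.15, numpy 2.4.6, scipy 1.17.1 and matplotlib 3.10.9 were used.

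The members and gene lists were chosen with earlier results of these data known. Named genes had 2 or more UTR peaks in 1 list, UTR peaks in 2 or more lists, a nucleoplasm UTR peak, a Kc 5' UTR peak, or were among up to 4 genes of a gene list (66 genes). Further genes, such as gw, Nf1, 14-3-3epsilon, Madm, Tctp and fru, were named after their values were seen. RNA sequences and their motifs were not analysed here.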

Additional observations from a re-analysis of the deposited data

How the results depend on the processing

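Alternatives were class by most of the peak, peaks of at least 30 nt, peaks within 20 nt merged, strand ignored, 5' UTR peaks in no CDS, genes in place of peaks, the farthest annotated end, other rules for a shared site and, chosen after seeing the data, leaving out pAbp, aqz and sqd. For the UTR share of arm peaks in S2 against Kc chromatin, the odds ratio of 1.86 did not pass the threshold. It passed with strand ignored (1.95, adjusted exact p = 0.0256) and with genes in place of peaks (2.14, adjusted exact p = 0.0177). It also passed without those 3 genes (2.43, adjusted exact p = 0.00259), which were picked by the UTR peaks that the test counts. That last value is therefore no support. Under the other alternatives the odds ratio did not pass. With peaks of at least 30 nt, the UTR share of mRNA exon peaks turned from 1.49 to 0.552 for S2 over Kc nucleoplasm and from 0.589 to 1.23 for S2 chromatin over nucleoplasm (adjusted exact p = 1 for both), with 3 such peaks left in S2 nucleoplasm. UTR target genes then numbered 79 in S2 chromatin in place of 139, 1 in S2 nucleoplasm in place of 5 and 12 in Kc nucleoplasm in place of 20. By an overlap of at least 0.5 of the shorter peak, 1 site in place of 2 was shared by the chromatin lists. To the farthest annotated end, the median distance was 434 nt in S2 chromatin, 978 nt in Kc chromatin (from 348 nt, within the wide interval of that median) and 1071 nt in Kc nucleoplasm. Without pAbp, aqz and sqd it was 220 nt in Kc chromatin. By most of the peak it was 271 nt in S2 nucleoplasm in place of 272 nt. The other 121 of 133 alternative values kept their direction and their side of the threshold, or stayed within 1.5 times the count or within the interval of the median.

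Read depth is unknown, so a low number of peaks and a shallow library cannot be told apart. No stricter score was set, since the score does not vary, and the filter on repeated sequence was not run. No paired analysis was possible because each line and fraction has 1 list and no list carries values for a replicate.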

Other observations

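Genes that host snoRNAs, which guide modification of other RNAs from within introns, made up 5 of the 139 genes with UTR peaks in S2 chromatin (3.60%). They were Hrb98DE, RpS20, Usp10, kra and pAbp. Over all autosomal genes with a UTR the number was 75 of 11444 (0.655%). In Kc chromatin 1 of 22 was a host, pAbp, and in nucleoplasm 0 of 5 and 0 of 20. This was examined after the peaks were seen, and it was not tested.

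A further 5 peaks lay in an annotated 3' UTR but went to a small RNA of 72 to 91 nt by the order of classes. In S2 chromatin they were a tRNA in osp, snoRNA:Or-CD9b in Nop60B and snoRNA:Me18S-A425 in RpL3. In Kc chromatin both were in Nop60B, in snoRNA:Me28S-G1083c and snoRNA:Me28S-G1083d. Nop60B encodes the enzyme that forms pseudouridine in rRNA.

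By arm, 3R held 60 of the 161 UTR peaks of S2 chromatin (37.3%) and 29.8% of annotated autosomal UTR bases, and 2R held 45 (28.0%) and 23.4%. Arm 3L held 26 (16.1%) and 23.2%. In Kc chromatin 15 of 27 were on 3R, and 7 of those were in sqd and aqz.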
